A study of Mus musculus with 2 samples.

Results

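The cells described here are Slc12a3-positive cells of the distal convoluted tubule in newborn mouse kidney (postnatal day 0), measured by droplet single-cell RNA sequencing. They were chosen by their own counts of unique molecular identifiers (UMIs, each standing for 1 captured transcript): at least 2 UMIs of Slc12a3, at least 2 of Tmem52b or of Emx1, and fewer than 5 UMIs of Slc12a1 per 10,000 UMIs of the cell. Barcodes were kept if they held 1000 or more UMIs and 500 or more genes and if mitochondrial UMIs did not exceed 20%, and 56 of the 9227 kept barcodes met this rule. There were 43 among 4187 in the library labelled Flcn WT and 13 among 5040 in the library labelled Flcn KO. Because Slc12a3, Tmem52b, Emx1 and Slc12a1 selected the cells, their levels are given as a description only. In GRCm38 (GENCODE M21), Slc12a3 lies at chr8:94329201-94366214 on the plus strand and Flcn at chr11:59791408-59810016 on the minus strand.

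Both libraries came from kidneys carrying Six2Cre, a recombinase driven from the Six2 gene of nephron progenitors, and floxed Flcn. The series' design text gives Six2Cre; Flcn flox/+ for the control, so the library labelled WT is heterozygous in the cells where Cre acted, and Six2Cre; Flcn flox/flox for the knockout. The labels name the tissue embryonic kidney, do not give the number, strain or sex of the animals, and list 1 library per genotype. No test between genotypes is therefore possible. The intervals printed are 95% intervals for counting error only and do not cover variation between animals.

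The distal convoluted tubule reabsorbs sodium chloride from the urine through the thiazide-sensitive cotransporter NCC, which Slc12a3 encodes. WNK kinases and their target SPAK switch that transporter on, and a basolateral sodium pump and potassium and chloride channels drive it. The same segment sets urinary magnesium through the channel TRPM6, and its later portion moves calcium through TRPV5, the calcium-binding proteins calbindin-D28k and calbindin-D9k, and the sodium-calcium exchanger NCX1. Folliculin, the product of Flcn, works with the FNIP proteins and the Rag GTPases at the lysosome, where it lets mTORC1 keep the transcription factors TFEB and TFE3 out of the nucleus. These factors drive genes of lysosomes and autophagy.

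The deposited matrices held 5572 WT and 5991 KO barcodes and 147390790 and 149679281 UMIs. The 2 libraries shared 5 barcodes, 1 of them among the barcodes kept in both, and no member cell had a shared barcode. Xist was detected in 94.3% and 96.9% of kept barcodes, with 17 and 13 UMIs from 4 Y-linked genes. The KO library held a larger share of stroma (30.1% against 20.7% of kept barcodes by the markers Pdgfra and Col3a1). In the member cells Flcn itself had 32 UMIs in WT and 9 in KO (ratio of KO to WT 0.707, 0.297 to 1.52). The labels do not say which exons were floxed, and UMIs counted at the 3′ end of the transcript do not check the deletion.

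Member cells made up 1.03% of kept barcodes in WT (Clopper-Pearson 95% interval 0.744 to 1.38%) and 0.258% in KO (0.137 to 0.441%). Thick ascending limb-type cells, chosen by Slc12a1 of at least 5 UMIs per 10,000 and fewer than 2 UMIs of Slc12a3, were 4.35% and 4.52% in the same libraries. Since the rule counts UMIs, fewer cells of the type and less Slc12a3 per cell cannot be told apart in these shares. Slc12a3 was seen with at least 1 UMI in 225 WT and 96 KO barcodes and with at least 2 in 59 and 23, of which 48 and 18 also passed on Tmem52b or Emx1 and 5 in each library were left out for Slc12a1. Just inside the rule, 7 WT and 3 KO members had exactly 2 Slc12a3 UMIs. Just outside it, 25 WT and 6 KO barcodes had 1 Slc12a3 UMI and met the other criteria. Members held 91.8% of the WT library's 3906 Slc12a3 UMIs and 77.3% of the KO library's 414.

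Depth varied widely among members. WT members had 1081 to 194008 UMIs (median 38658) and KO members 2433 to 144632 (median 53640), with a median of 6875 and 7918 genes and of 7.18% and 7.13% mitochondrial UMIs. The sums over members were 2132294 UMIs in WT and 858495 in KO, and the 7 WT and 3 KO cells over 100000 UMIs supplied 49.6% and 45.8% of them. In WT 11 cells and in KO 1 cell had under 5000 UMIs. The mitochondrial share was under 0.5% in 5 of 43 WT and 0 of 13 KO cells. Those 5 all had under 5000 UMIs, and the WT cell with the highest Slc12a3 level was among them. The level of Slc12a3, on which the cells were selected, spanned 0.155 to 91.2 UMIs per 10,000 in WT (median 15.3) and 0.182 to 32.0 in KO (median 2.09). It reached 20 per 10,000 in 20 of 43 WT and 2 of 13 KO cells and was under 5 in 12 and 8. Those 12 WT and 8 KO cells had at least 14170 and 38338 UMIs, since a cell with at least 2 Slc12a3 UMIs can have a low level per 10,000 only if it is deep.

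**Figure D1:**
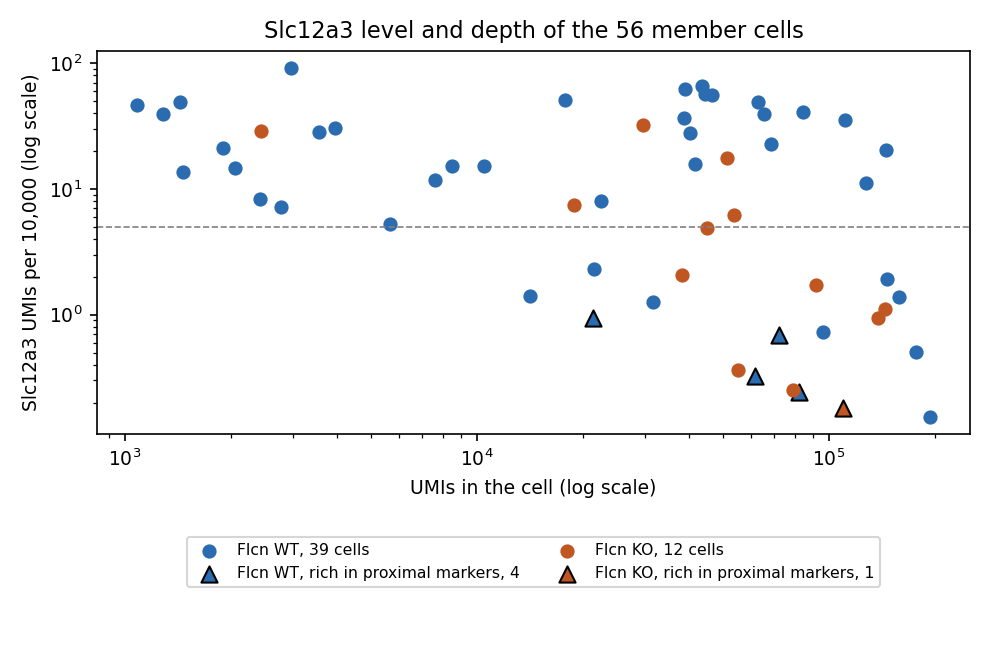
Each point is 1 member cell, with its total UMIs on the horizontal axis and Slc12a3 UMIs per 10,000 on the vertical axis, both on log scales. WT cells are blue, KO cells orange, and triangles mark the 4 WT and 1 KO cells rich in proximal tubule markers. The dashed line is at 5 per 10,000, which 31 WT and 5 KO cells reached.

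The label was checked on Sall3, a transcription factor gene of distal tubule cells that the rule did not use, and on markers of other cell types. Sall3 was detected in 28 of 43 WT members (65.1%, 49.1 to 79.0%) and 12 of 13 KO members (92.3%, 64.0 to 99.8%). Against the other kept barcodes of the same library, the genes that led the member cells beside those of the rule were Pgam2, a muscle-type phosphoglycerate mutase (82.3-fold in WT and 51.4-fold in KO), and Defb1, a beta-defensin (47.4-fold and 35.2-fold). They were followed by S100g, which encodes calbindin-D9k (73.5-fold and 18.01-fold), Sall3 (24.96-fold and 45.4-fold), and the basolateral potassium channel gene Kcnj10 (28.3-fold and 24.8-fold). Rhcg, an ammonia channel of the distal nephron, stood at 13.1-fold and 25.7-fold, and Bsnd, the beta subunit of the chloride channels, at 14.4-fold and 19.98-fold. Pvalb, the calcium buffer parvalbumin that marks the early segment in the adult, had 1 UMI in WT and 0 in KO. These folds describe cells chosen by co-expressed genes and are not a test.

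A few members went against the label. In WT 4 cells had 121 to 160 UMIs per 10,000 from 8 proximal tubule markers, with 72 to 285 UMIs of the endocytic receptor Lrp2, only 2 to 5 UMIs of Slc12a3 and none of Sall3. In KO 1 cell had 55.8 per 10,000, with 164 Lrp2 UMIs, 2 Slc12a3 UMIs and no Sall3. Together such cells held 11.1% of the WT and 12.8% of the KO members' UMIs, and results that rest on them are given without them. The summed list of 8 principal cell and connecting tubule markers, from the segments that follow, had a median of 5.55 UMIs per 10,000 per cell in WT (0 to 44.7) and 2.28 in KO (0 to 19.9). The 7 intercalated cell markers had medians of 0 in both, up to 28.5 in WT and 13.1 in KO, where Slc26a4, Aqp6 and Hmx2 had no UMI. Lists for endothelium, stroma, mural cells, podocytes and immune cells had a median of at most 0.182 per 10,000 in either library. C1qb, Lyz2 and Tyrobp of the immune list were at 0 in both. Counted cell by cell, 11 WT and 2 KO members, the proximal-rich ones included, held more UMIs of another type's list than of the distal convoluted tubule list. Outside the proximal-rich cells, that list was the principal cell and connecting tubule one in 5 WT and 1 KO cells, the intercalated one in 2 WT cells and the podocyte one in 1 WT cell, with 1 cell counted for 2 lists. Without the 11 and 2 cells, a choice made after seeing the data, S100g was at 0.0638, Calb1 at 0.117, Slc8a1 at 0.0937, Hexa at 8.08 and Apoe at 13.2. These are ratios of KO to WT as defined below. The medians of the lists described below were then -1.75 for calcium and magnesium handling, 0.70 for TFEB and TFE3 targets and 0.74 for lysosomal genes.

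Across the 7922 genes with at least 50 UMIs over the members of both libraries and a level of at least 20 CPM in 1 of them, 284 were higher in KO by 2-fold or more (3.58%) and 380 lower by as much (4.8%). CPM is a gene's count per 1000000 UMIs of nuclear-encoded genes, summed over the member cells of a library. For the gene lists, all genes with at least 10 UMIs were used: of these 12343, 6.42% were at least 2-fold higher and 8.65% at least 2-fold lower, with a median log2 ratio of 0.03. Of the same 12343 genes, 6469 had a ratio above 1, and list counts above 1 are to be read beside that number. List medians below are of log2 ratios of CPM with 0.5 UMI added to each sum.

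Genes of calcium and magnesium handling were lower in the KO members than in the WT members, and this was the lowest of the list medians (-1.38). Of 19 list genes with at least 10 UMIs, 11 were at least 2-fold lower, against 8.65% of all genes, and 1 was at least 2-fold higher. S100g, the vitamin D-induced calbindin-D9k gene (chrX:162961992-162964599, minus strand), stood at 20195 CPM in WT and 1667 CPM in KO, a ratio of 0.0825 (0.0781 to 0.0872). Calb1, which encodes calbindin-D28k, had 2195 and 242 CPM (0.110, 0.0947 to 0.127). Slc8a1, the exchanger NCX1, had 4600.5 and 404 CPM (0.0878, 0.0783 to 0.0981). The apical calcium channel gene Trpv5 was at 0.0758 (0.0302 to 0.159), with 232 WT and 7 KO UMIs, while its relative Trpv6 was at 0.476 (0.283 to 0.763). These carriers belong to the calcium-moving end of the segment and the connecting tubule.

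Single cells showed the same direction. S100g ranged from 0 to 115291 CPM in WT cells (median 20674) and from 0 to 9784 CPM in KO cells (median 399). The highest WT value came from a cell of 2054 UMIs, 0.341% of them mitochondrial. No KO cell exceeded the WT median, and 36 of 43 WT cells exceeded the KO median. Calb1 had a median of 1294 CPM over WT cells (0 to 12735) and 53.8 over KO cells (0 to 3239), and 1 KO cell lay above the WT median. That cell held 74.5% of the KO Calb1 UMIs, and 1 cell held 82.6% of those of Slc8a1. The ranges of the 2 libraries overlapped for each of these genes, as the cell-by-cell plot shows. After each cell was thinned to 5000 UMIs, which left 32 WT and 12 KO cells, Slc8a1 was detected in 27 and 2 of them and Calb1 in 24 and 5, but S100g in 27 of the WT and 11 of the KO cells.

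**Figure D2:**
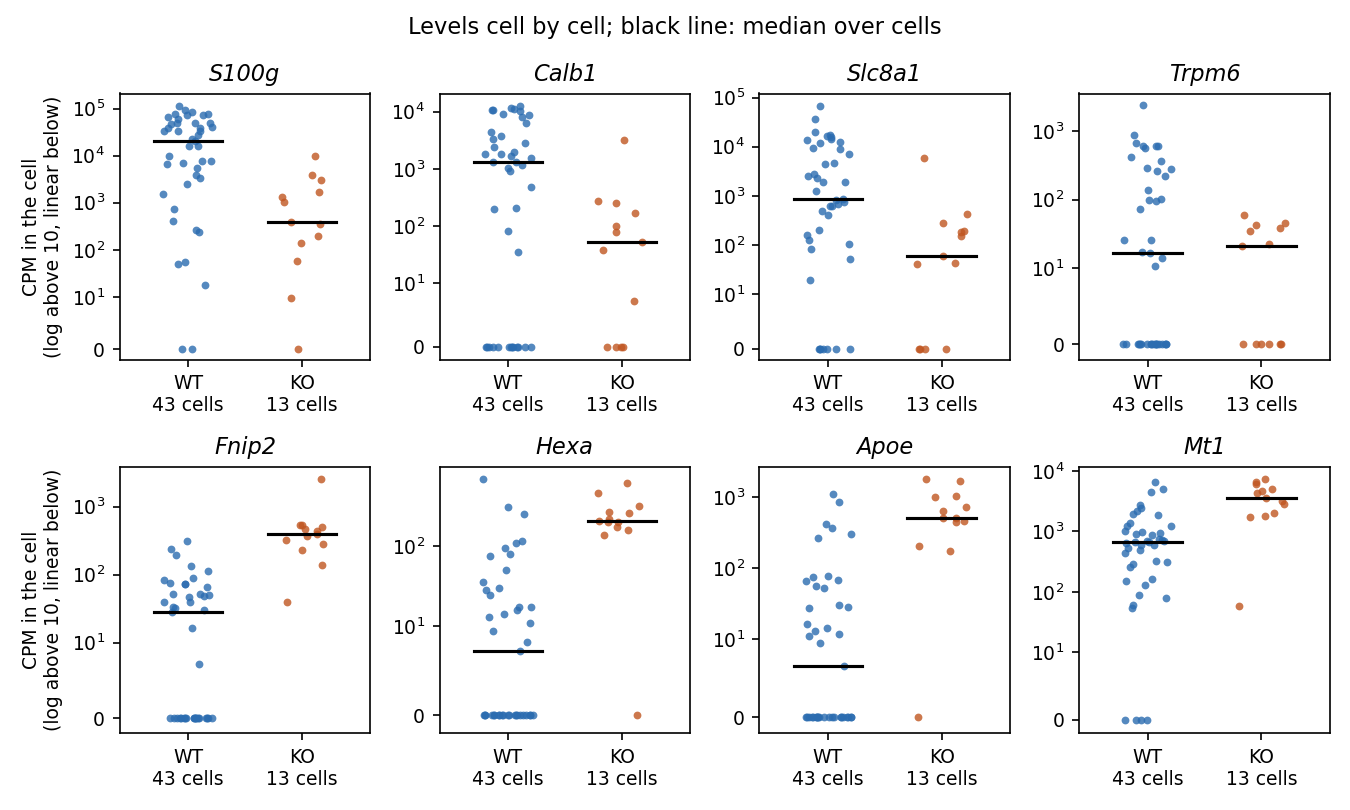
Each point is 1 member cell, 43 from WT in blue and 13 from KO in orange, and the vertical axis is CPM within the cell, logarithmic above 10 and linear below. Black lines are medians over cells. S100g, Calb1 and Slc8a1 were lower over KO cells and Fnip2, Hexa, Apoe and Mt1 higher, while the medians of Trpm6 were 16.5 CPM in WT and 20.8 CPM in KO.

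Among magnesium genes, Trpm6, the apical magnesium channel, was at 143 CPM in WT and 23.9 CPM in KO when summed (0.167, 0.0991 to 0.266), from 286 and 19 UMIs. It was detected in 24 of 43 WT and 7 of 13 KO cells, and the median cell was not lower in KO. After thinning, Trpm6 was in 12 of 32 WT (37.5%) and 2 of 12 KO cells (16.7%). The upper quartile was 271 CPM over WT cells and 38.8 CPM over KO cells, and the highest KO cell had 59.9 CPM. The highest WT level, 2370 CPM, came from a cell of 2960 UMIs with 7 Trpm6 UMIs. The most Trpm6 UMIs in 1 WT cell were 44, at 414 CPM. Cnnm2, a basolateral magnesium protein, was at 0.382 (0.291 to 0.495), and Trpm7, a broadly expressed relative of Trpm6, at 1.72 (1.59 to 1.85). Receptors and hormonal partners of calcium transport were lower: Pth1r, the parathyroid hormone receptor, was at 0.139, the vitamin D receptor gene Vdr at 0.245 and Kl, which encodes klotho, at 0.288 with 81.7% of its KO UMIs in 1 cell. Atp2b4, a plasma membrane calcium pump, was at 0.249, and its relative Atp2b1 at 0.790. Casr, the calcium-sensing receptor, was at 1.96 (1.05 to 3.59). Egfr, the receptor for the magnesium-regulating hormone EGF, was the gene at least 2-fold higher (2.51), and 71.0% of its KO UMIs came from 1 cell.

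Other values moved with these. Some markers of the following segments were also lower in KO. Scnn1g, a subunit of the epithelial sodium channel, was at 0.218 (0.137 to 0.331). Hsd11b2, the enzyme that keeps cortisol-type hormones off the mineralocorticoid receptor, was at 0.0619 (0.0199 to 0.147) with its 5 KO UMIs in 1 cell. The summed list of 8 principal cell and connecting tubule markers differed less, at 884 CPM in WT and 550 CPM in KO. Not every such gene was lower: Fxyd4, of the collecting duct, had 12 WT and 62 KO UMIs, the latter all in 1 cell. Slc12a3, the selecting gene, was at 1794 CPM in WT and 403 CPM in KO. Among members with Slc12a3 of at least 5 per 10,000 (31 WT and 5 KO), a limit set after seeing the data, the calcium and magnesium list median was -1.67. The ratios were 0.120 for S100g, 0.289 for Calb1, 0.252 for Slc8a1 and 0.116 for Trpm6. Of the 5 KO cells, 1 held 432 of their 556 S100g UMIs, 143 of 159 of Calb1 and 265 of 284 of Slc8a1. None of the 5 had more than 2 Trpm6 UMIs, so few cells and UMIs set these ratios. Whether the position of the cells along the tubule, the Slc12a3 level or depth had a part in these differences was not tested. In endothelial cells, which do not make calbindin-D9k, S100g UMIs were found in 61.1% of WT and 15.3% of KO cells, at 34.1 and 4.53 CPM, so the S100g signal outside tubule cells was also lower in the KO library.

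The machinery around the sodium chloride cotransporter had a list median of 0.03, close to that of all genes. Of its 16 regulators, 2 were at least 2-fold higher and 1 at least 2-fold lower, against 6.42% and 8.65% of all genes. Stk39, which encodes SPAK, was at 215 CPM in WT and 467 CPM in KO (2.17, 1.89 to 2.504), and Sgk1, the aldosterone- and glucocorticoid-induced kinase, at 134 and 270.4 CPM (2.02, 1.68 to 2.42). Each of the 13 KO cells held UMIs of both genes, but detection depends on depth, and KO members were deeper (median 53640 against 38658 UMIs). Wnk1 was at 0.555 (0.493 to 0.625), Wnk4 at 0.717 (0.574 to 0.890), and Klhl3, the adaptor that marks WNK kinases for degradation, at 0.643 (0.546 to 0.754). Over 15 alternative choices of cells and scaling, Stk39 stayed between 1.66 and 3.11 and Wnk4 between 0.477 and 0.899, whereas Klhl3 ran from 0.541 to 1.29. The lower gene was Hsd11b2.

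The sodium pump and basolateral channels had a median of -0.23, with none of 11 genes past 2-fold in either direction. Atp1b1, the beta subunit of the pump, had 4552 CPM in WT and 4376 CPM in KO. Kcnj10 was at 0.639 (0.488 to 0.828) and its partner Kcnj16 at 0.764 (0.656 to 0.887). Claudin and junction genes had a median of -0.01 with none of 16 past 2-fold, with Cldn8 at 0.663 and Cdh1, E-cadherin, at 0.765.

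Transcription factors of the distal nephron had a median of -0.26. Among them 2 of 24 were at least 2-fold higher and 6 lower, against 6.42% and 8.65% of all genes. Over the alternatives the median ran from -0.57 to 0.29. Esrrg, an orphan receptor of oxidative tubule cells, was the highest by level among those above 1, at 4120 CPM in WT and 6912 CPM in KO (1.68, 1.62 to 1.74), and Ppargc1a, the coactivator of mitochondrial biogenesis, was at 1.48 (1.37 to 1.61). Esrrb and Ehf were each at 2.51, from 31 and 13 UMIs in each library. Tfcp2l1 (0.496, 0.441 to 0.557), Tfap2b (0.486, 0.407 to 0.576) and Pax2 (0.429, 0.337 to 0.541) were lower. Dmrt2 had 54 WT UMIs and 1 KO UMI (0.0466, 0.00116 to 0.271). Foxi1, the intercalated cell factor, was at 0.130 (0.0550 to 0.262), and Atp6v1g3, an intercalated cell subunit of the proton pump, at 0.133 with its 30 KO UMIs in 1 cell. Those 2 genes mark another cell type, whose summed markers were at 515 CPM in WT and 103 CPM in KO members, and the part of such cells in the difference was not tested.

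TFEB and TFE3 targets and lysosomal genes were higher in the KO members. Of 20 TFEB and TFE3 target genes with at least 10 UMIs, 19 were above 1, 8 were at least 2-fold higher, against 6.42% of all genes, and none was 2-fold lower (median 0.79, or 0.58 to 0.95 over 15 alternatives). Of 39 lysosomal hydrolases and membrane proteins, 34 were above 1 and 11 at least 2-fold higher, with none 2-fold lower (median 0.71, or 0.24 to 0.78). The lists share 5 genes (Mcoln1, Hexa, Neu1, Ctsd and Asah1), and they were drawn up with earlier results on these data known, so their direction is not independent evidence.

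The folliculin pathway list had a median of 0.24, with 3 of 25 genes at least 2-fold higher and none lower, against 6.42% and 8.65% of all genes. Fnip2, a folliculin partner, was at 60.5 CPM in WT and 362 CPM in KO (5.98, 4.82 to 7.46). It had UMIs in 24 of 43 WT and all 13 KO cells, and every KO cell exceeded the WT median of 28.4 CPM. In KO 9 cells lay above the highest WT cell at 309 CPM. Rragd, the Rag GTPase under TFEB and TFE3 control, was at 120 and 330 CPM (2.76, 2.30 to 3.30) and Lamtor1, which anchors the Rag GTPases to the lysosome, at 2.45 (1.94 to 3.08). Fnip1 was at 1.77 (1.402 to 2.24) and Rragc at 1.64 (1.16 to 2.29). The factors themselves were not higher: Tfeb stood at 0.786 (0.549 to 1.10) and Tfe3 at 0.733 (0.373 to 1.35), from 144 and 45 and from 48 and 14 UMIs.

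Among lysosomal enzymes, Hexa, the alpha subunit of beta-hexosaminidase, was at 30.5 CPM in WT and 253 CPM in KO (8.28, 6.19 to 11.2). Among KO cells, 12 of 13 exceeded the WT median of 7.20 CPM, although none exceeded the highest WT cell at 683 CPM. That WT cell held 1465 UMIs, so its value stands for 1 Hexa UMI. The next highest WT cells were at 306 CPM (3550 UMIs) and 253 CPM (65285 UMIs). The highest KO cell was at 604 CPM (53640 UMIs). Arsa, arylsulfatase A, was at 5.61 (2.82 to 11.8), Scarb2, the carrier of glucocerebrosidase, at 4.04 (2.34 to 7.13), Neu1, the lysosomal sialidase, at 3.04 (2.38 to 3.89) and Grn, progranulin, at 2.99 (2.497 to 3.58). Lamp1, a major protein of the lysosomal membrane, was at 330 and 699 CPM (2.12, 1.89 to 2.38), but its ratio was 1.15 at the lowest of the alternatives. Npc1, the lysosomal cholesterol exporter, was lowest in the list at 0.618 (0.326 to 1.10). Gpnmb, a widely used marker of TFE3 activity, had 1 WT and 5 KO UMIs in the member cells, a ratio of 12.6 (1.41 to 594). Subunits of the vacuolar proton pump had a median of 0.09, with none of 21 at least 2-fold higher, and Atp6v1b1 and Atp6v1c2, at 0.271 and 0.230, were the 2 lower ones. Autophagy genes had a median of 0.08, with Optn at 2.14 and Gabarap at 2.05.

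Among the genes of these 2 lists at least 2-fold higher in KO members, those with a match to TCACGTG, the E-box form that TFEB and TFE3 bind, upstream of their start are shown here. Sequences are from RefSeq promoters (GRCm38.p6), each covering 250 bases before to 50 after the start, are printed 5′ to 3′ on the gene's strand, and end before the annotated gene. Capitals mark each match to TCACGTG or to its reverse complement CACGTGA, and TCACGTGA, which holds both, counts as 2 overlapping matches.
Amdhd2, chr17:24163767-24163825, minus strand: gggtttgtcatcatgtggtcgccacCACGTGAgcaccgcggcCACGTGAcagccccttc
Bhlhe41, chr6:145865559-145865598, minus strand: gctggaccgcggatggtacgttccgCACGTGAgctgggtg
Arsa, chr15:89477426-89477466, minus strand: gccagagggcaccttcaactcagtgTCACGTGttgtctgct
Lamp1, chr8:13159074-13159160, plus strand: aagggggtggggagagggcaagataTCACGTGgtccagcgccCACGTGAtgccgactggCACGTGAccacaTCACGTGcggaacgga
Dpp7, chr2:25356374-25356431, minus strand: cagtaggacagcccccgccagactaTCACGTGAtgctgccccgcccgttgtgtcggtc
The Lamp1 window held 4 matches, and the nearest lay 16 bases before the start. TCACGTG on either strand was in 3.84% of all 27025 promoters of the table, in 6 of 16 TFEB and TFE3 targets with an entry and in 8 of 30 lysosomal genes with an entry. Among those at least 2-fold higher it was in 2 of 6 and 3 of 9. The shorter CACGTG was in 7.24% of all promoters. A match describes the letters of the window and is no evidence of binding, and Fnip2, Rragd, Hexa and Neu1 had no match in theirs.

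Glucocorticoid-responsive genes had a median of 0.81, with 6 of 13 at least 2-fold higher, against 6.42% of all genes, and none lower. Mt1, a metal-binding metallothionein, was at 640 CPM in WT and 3443 CPM in KO (5.38, 5.03 to 5.75), and its neighbour Mt2 at 3.91 (3.35 to 4.57). Among KO cells, 12 of 13 lay above the WT median of 662 CPM of Mt1. Zbtb16 was at 5.20 (3.77 to 7.24) and Fkbp5, a chaperone of the glucocorticoid receptor, at 4.68 (3.66 to 6.02), while the receptor genes Nr3c1 and Nr3c2 were at 0.875 and 0.940. Zbtb16 was also 3.97-fold higher in KO endothelium and 4.30-fold higher in KO stroma, and Mt1 3.66-fold and 3.40-fold, so these 2 genes were not higher in distal cells alone. The whole list had a median of 0.71 in stroma, where 12 of 13 genes were above 1 and 4 at least 2-fold higher. Its median was 0.42 in distal cells without Slc12a3 UMIs, 0.34 in epithelium with Gata3 and Epcam, 0.23 in thick ascending limb-type cells and 0.16 in endothelium.

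Lipid genes were higher too. Of 25 genes of sterol and fatty acid synthesis, 11 were at least 2-fold higher, against 6.42% of all genes, and none lower (median 0.84). The farnesyl diphosphate synthase gene Fdps was at 4.11 (2.98 to 5.72), Msmo1 at 4.20 (3.06 to 5.82) and the feedback regulator Insig1 at 4.25 (2.63 to 6.97). This list depended on which cells were counted: its median ran from 0.00 to 1.19 over the alternatives, and Msmo1 was at 0.809 among cells with Slc12a3 of at least 5 per 10,000. Apoe, the lipid-carrying apolipoprotein, was at 57.0 CPM in WT and 699 CPM in KO (12.3, 10.0 to 15.1). It was found in 22 of 43 WT and 12 of 13 KO cells, with cell medians of 6.54 and 511 CPM, and 54.4% of its WT UMIs were in 1 cell. After thinning, Apoe was detected in 2 of 32 WT and 11 of 12 KO cells. In endothelium thinned alike it was in 37.0% of WT and 42.3% of KO cells. Lipid transport and storage genes had a median of 0.48, with 3 of 15 at least 2-fold higher and 1 lower, against 6.42% and 8.65% of all genes.

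All 30 nuclear-encoded respiratory chain genes were above 1, against 6469 of all 12343 genes, though none reached 2-fold (median 0.30), led by Cox5a at 1.55. With each cell weighted equally the median was 0.01. Glycolysis genes had a median of 0.43, with 14 of 15 above 1, and Hk2 at 4.49 was the member past 2-fold. Both lists are shown with the others in the plot of gene lists.

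**Figure D3:**
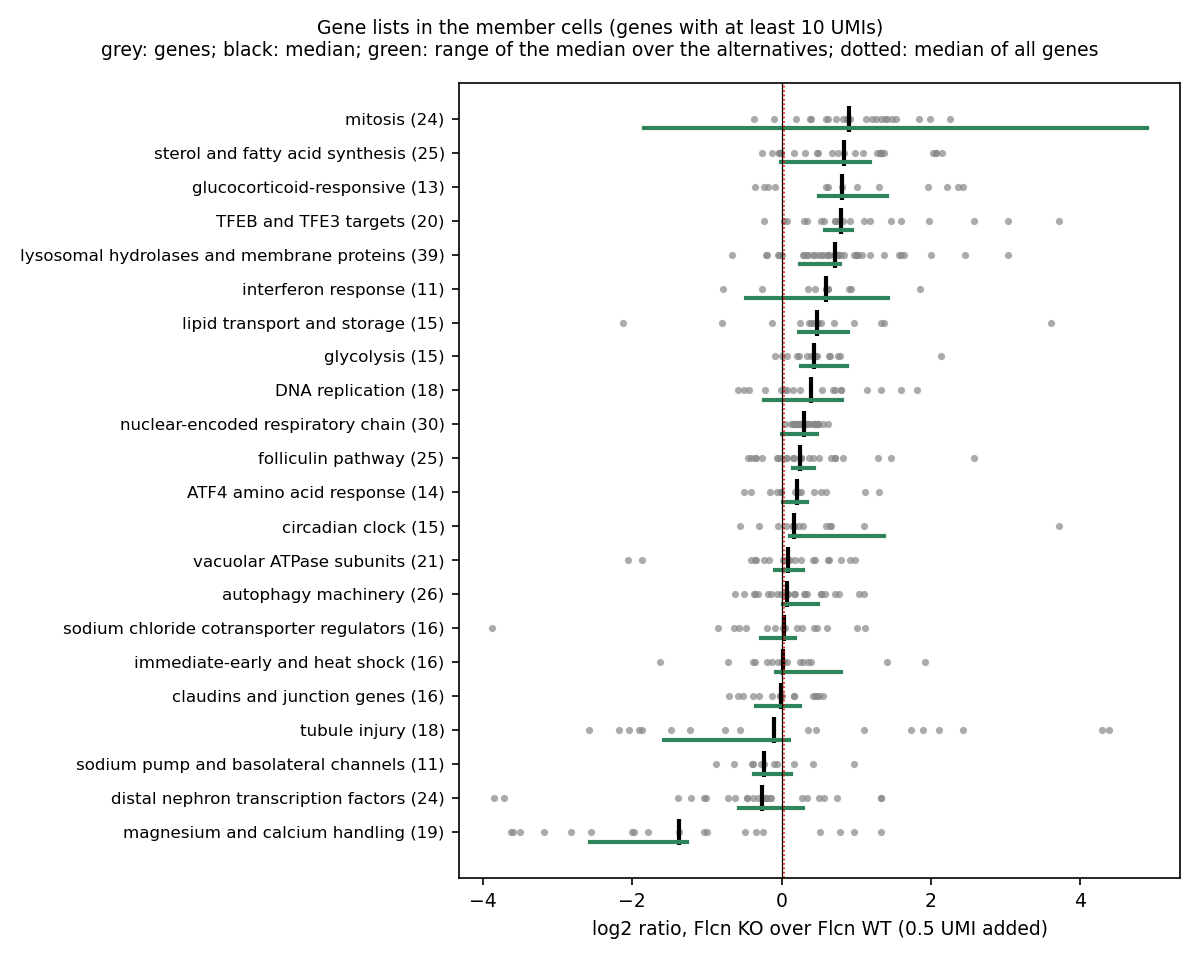
Each grey point is a gene with at least 10 UMIs in the member cells, placed by its log2 ratio of KO to WT with 0.5 UMI added, and gene numbers stand in brackets. Black bars are list medians, green bars the range of the median over 15 alternatives, and the dotted line the median of all genes at 0.03. Calcium and magnesium handling was lowest at -1.38, TFEB and TFE3 targets stood at 0.79, and mitosis at 0.91 with a range of -1.85 to 4.90.

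Few members were dividing. At least 10 UMIs per 10,000 from 24 mitosis genes were found in 2 of 43 WT and 2 of 13 KO cells, with a highest cell of 34.2 and 59.5. The mitosis list had a median of 0.91, with 11 of 24 genes at least 2-fold higher, against 6.42% of all genes. Without those 4 cells the median was 0.25. Mki67 had 77 UMIs from 6 WT cells and 89 from 5 KO cells, and 1 cell held 63.6% of the former. DNA replication genes had a median of 0.40 and of -0.19 without the same cells.

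Injury genes went both ways, with 7 of 18 at least 2-fold higher and 7 lower, against 6.42% and 8.65% of all genes (median -0.10). The median was -0.61 without the proximal-rich cells and -1.57 among cells with Slc12a3 of at least 5 per 10,000. Cdkn1a, the cell-cycle inhibitor p21, was at 46.0 CPM in WT and 199 CPM in KO (4.32, 3.32 to 5.65) and was found in 18 of 43 WT and 12 of 13 KO cells. Over the alternatives Cdkn1a ran from 1.47 to 9.83. Spp1, osteopontin, was at 3406 and 750 CPM (0.220, 0.202 to 0.239), Clu, clusterin, at 0.166 (0.129 to 0.212) and Krt7, a keratin, at 0.270 (0.177 to 0.397). Havcr1, the proximal tubule injury molecule KIM-1, had 2 WT and 19 KO UMIs, and 84.2% of the latter were in 1 cell. The interferon list had 11 genes with enough UMIs, of which B2m, at 3.63 with 65.3% of its KO UMIs in 1 cell, was past 2-fold.

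Ranked by the bound of the interval nearest to 1, 12 genes in each direction were named from the 7922. The higher ones were Ptgds, Ptger3, Apoe, Fxyd4, Bhlhe41, Lpo, Hexa, Magi2, Ckb, Rtl4, Rab27a and Mt1. Ptger3, the prostaglandin E receptor EP3 and a marker of the thick ascending limb, had 11 WT and 113 KO UMIs (25.8, 13.9 to 53.2). It was in 7 of 43 WT and 10 of 13 KO cells, 8 of which lay above every WT cell. The limb marker Umod had 8 and 5 UMIs in all members. The 7 thick ascending limb markers, Ptger3 and the rule's Slc12a1 among them, summed to 308 CPM in WT and 415 CPM in KO. Their medians per cell were 2.88 and 3.18 UMIs per 10,000. Ptger3 alone held 11 of the list's 616 WT UMIs and 113 of its 330 KO UMIs. The higher KO sum therefore rested on Ptger3 itself and does not show the other limb markers to be higher. Magi2, a scaffold of cell junctions, was at 283 and 1819 CPM (6.43, 5.83 to 7.103), and each of the 13 KO cells, from 505 CPM upward, exceeded the WT median of 116 CPM. Bhlhe41, a clock repressor, was at 13.8 (6.44 to 34.003), Rtl4, a retrotransposon-derived gene, at 10.1, Ckb, brain-type creatine kinase, at 7.31, and Rab27a, a small GTPase of vesicle release, at 6.73. These genes with Apoe, Hexa, Lpo and Mt1 were at least 2-fold higher in each of the 15 alternatives. Lpo, lactoperoxidase, had 63.4% of its KO UMIs in 1 cell (10.3, 6.26 to 17.7).

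Ptgds, prostaglandin D synthase, and Fxyd4, a sodium pump regulator of the collecting duct, rested on 1 KO cell each, which held 98.4% of 64 and all 62 of their KO UMIs. For Ptgds that cell was the proximal-rich KO cell. Without the proximal-rich cells Ptgds had 0 WT UMIs and 1 KO UMI, and no ratio is given. Fxyd4 was below 1 in 5 alternatives that left out cells and had at most 3 UMIs in both libraries in 2 others.

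The lower ones were Kap, Slc5a12, Pck1, Klk1, S100g, Slc8a1, Spp2, Calb1, G6pc, Hsd11b2, Adgrl3 and Frem1. Kap, Slc5a12, Pck1 and G6pc are genes of the proximal tubule, and 1 WT cell held 75.9%, 99.5%, 79.4% and 71.2% of their WT UMIs. Slc5a12 had 408 and 0 UMIs (ratio 0, 0 to 0.0228). Without the proximal-rich cells Kap had 7 WT and 0 KO UMIs, Pck1 12 and 0, G6pc 2 and 1 and Slc5a12 2 and 0, and no ratio is given for the last pair of genes. Klk1, tissue kallikrein of the connecting tubule, had 392 UMIs from 15 WT cells and 6 from 1 KO cell (0.0385, 0.0140 to 0.0845). Frem1, an extracellular matrix protein, had 63 and 0 UMIs (ratio 0, 0 to 0.152), and Adgrl3, an adhesion receptor, 96 and 1 (0.0262, 0.000656 to 0.149). Spp2 had 78.8% of its 560 WT UMIs in 1 cell. It also rested on the proximal-rich cells, without which it had 10 WT and 0 KO UMIs. The plot of named genes gives each ratio with its range over the alternatives.

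**Figure D4:**
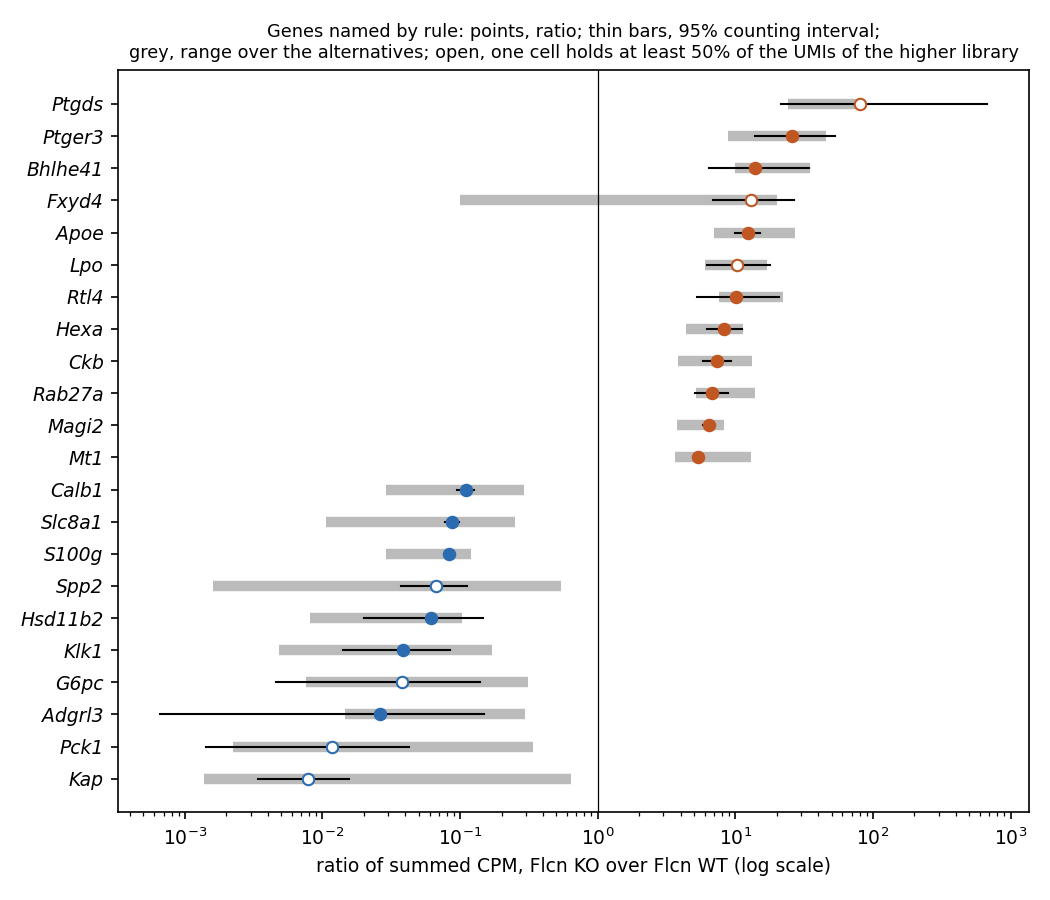
Points are ratios of summed CPM, KO over WT, on a log axis, for the genes named by rank except Slc5a12 and Frem1, which had no KO UMI. Thin bars are counting intervals and grey bars the range over 15 alternatives, and open points mark genes for which 1 cell held at least 50% of the UMIs in the higher library. Alternatives that left at most 3 UMIs of a gene in both libraries are not in its bar. Among the genes plotted, the grey bar of Fxyd4 crosses 1.

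The member ratios were set beside those of 5 other groups of cells in the same 2 libraries. These were distal cells with Emx1 or Sall3 and no Slc12a3 UMI (182 WT and 106 KO), thick ascending limb-type cells (182 and 228), epithelium with Gata3 and Epcam (227 and 122), which includes the collecting duct outside the Six2 lineage, endothelium (280 and 431) and stroma (867 and 1516). The differences between groups were not tested. Fnip2 was at 5.98 in members, 5.21 (4.78 to 5.67) in thick ascending limb-type cells and 1.76 (1.63 to 1.89) in Slc12a3-negative distal cells, but 0.880 in endothelium and 1.17 in stroma. Hexa was at 8.28 in members, 8.49 (7.42 to 9.75) in thick ascending limb-type cells and 5.24 (4.67 to 5.89) in Slc12a3-negative distal cells, with 1.08 (0.956 to 1.22) in endothelium and 1.01 (0.903 to 1.12) in stroma. TFEB and TFE3 targets had a median of 0.79 in members, 0.98 in thick ascending limb-type cells, 0.70 in Slc12a3-negative distal cells, 0.31 in Gata3 Epcam epithelium, 0.04 in endothelium and 0.09 in stroma.

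Calcium genes differed more from group to group. Calb1 was at 0.110 in members, 0.0422 (0.0228 to 0.0720) in thick ascending limb-type cells, where it was scarce (27.5 and 1.16 CPM), and 0.353 (0.313 to 0.397) in Slc12a3-negative distal cells. In Gata3 Epcam epithelium, where Calb1 stood at 876 and 890.5 CPM, the ratio was 1.02 (0.985 to 1.05). Slc8a1 was at 0.0878 in members, 0.354 (0.333 to 0.377) in Slc12a3-negative distal cells, 0.741 (0.718 to 0.765) in Gata3 Epcam epithelium and 1.03 (0.991 to 1.06) in endothelium. S100g was at 0.727 (0.704 to 0.750) in Slc12a3-negative distal cells and 1.51 (1.44 to 1.58) in Gata3 Epcam epithelium. Trpm6 was at 0.964 (0.679 to 1.35) in Slc12a3-negative distal cells and 1.34 (1.01 to 1.78) in Gata3 Epcam epithelium. The calcium and magnesium list had medians of -1.38 in members, -0.55 in thick ascending limb-type cells, -0.29 in Slc12a3-negative distal cells and 0.13 in Gata3 Epcam epithelium. Apoe was at 12.3 in members, 4.65 (4.44 to 4.87) in Slc12a3-negative distal cells and 3.91 (3.80 to 4.02) in thick ascending limb-type cells, and its KO levels in these groups were 699, 710.4 and 2115 CPM, so the larger ratio in members went with a lower WT level (57.0 against 153 and 541 CPM).

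**Figure D5:**
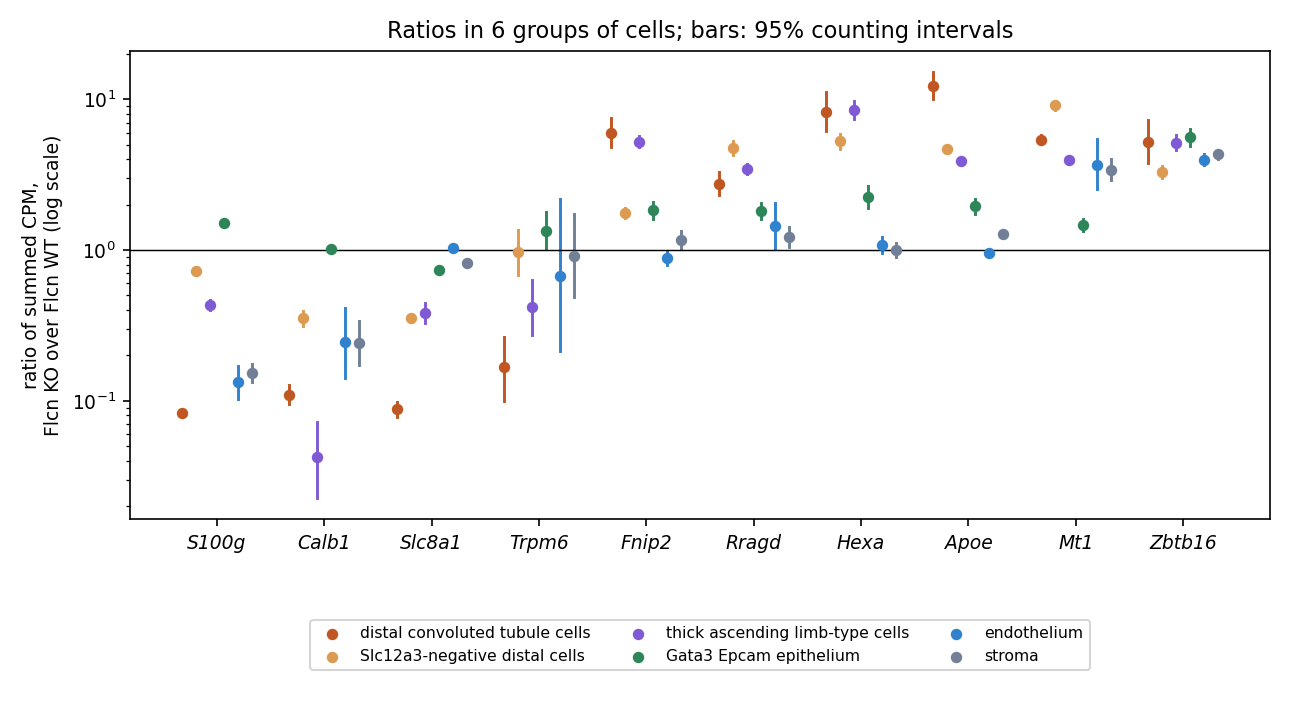
Points are ratios of summed CPM, KO over WT, on a log axis, for 10 genes in the member cells and 5 other groups of cells, and bars are 95% counting intervals. S100g, Calb1, Slc8a1 and Trpm6 lie below 1 in members and at or above 0.741 in Gata3 Epcam epithelium. Fnip2 and Hexa lie above 5 in members and thick ascending limb-type cells and near 1 in endothelium and stroma.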

How the data were processed

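One 10x Chromium 3′ library per genotype was sequenced, per the labels' protocols. The submitters' processing notes name bcl2fastq 2.20.0, STAR 2.7.2a and GRCm38, and the file headers give Cell Ranger 7.0.0 for WT and 7.1.0 for KO. The annotation used for counting is not given in the sources used here. The deposited matrices hold raw UMI counts, and each barcode in them has 500 UMIs or more. Of 55488 gene rows, 55141 matched GENCODE M21.

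Members followed the rule in the report. The rule, the members and the gene lists were chosen with earlier results of these data known. Member counts were added up within each library and scaled to CPM, with mitochondrial genes left out of the total. Ratios have exact conditional 95% intervals, also where a sum was 0, and shares have Clopper-Pearson intervals. Intervals cover counting error only. With 1 library per group no test was run. Named genes were the 12 highest and 12 lowest by the interval bound nearest to 1, among genes with at least 50 UMIs and 20 CPM in 1 library, without ribosomal, haemoglobin, mitochondrial, sex-linked marker and rule genes and unnamed models. List genes were named where they had the highest or lowest ratios or carry the list's role.

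The Scrublet method in scanpy 1.11.5 marked only 3 WT and 2 KO barcodes with its automatic limit, which is too few to use, so doublets were kept. An alternative removed the 187 and 242 highest scores, 4.46% and 4.79% of barcodes, among them 1 WT and 2 KO members. Other alternatives were at most 10% mitochondrial UMIs, Slc12a3 of at least 5 UMIs, Slc12a1 under 2 per 10,000, leaving out cells with other types' markers or the 10% deepest, the mean over cells, thinning to 5000 UMIs, TMM and median-of-ratios scaling, a minimum of 20 UMIs and a 1.5-fold limit. Cells with other types' markers had at least 3 UMIs, not scaled to depth, over the stroma, endothelium, immune, mural cell and podocyte lists. Leaving out proximal-rich or mitosis-rich members, those under 5000 UMIs or those with more UMIs of another type's markers than of distal ones, and Slc12a3 of at least 5 per 10,000, were added after seeing the data. So was the choice to give no ratio where an alternative left at most 3 UMIs of a gene in both libraries. The code was checked on drawn counts with known fold changes. Python 3.11.15, numpy 2.4.6 and scipy 1.17.1 were used. Results on some genes are not reported here.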

Additional observations from a re-analysis of the deposited data

How the results depend on the processing

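Of the values that answer a comparison, 161 kept their size within counting error or 1.5 times under an alternative, 25 moved and 2 reversed. Members were 0.740% of WT barcodes with Slc12a3 of at least 5 UMIs or, added after seeing the data, of at least 5 per 10,000, where they were 0.0992% in KO. Genes at least 2-fold higher numbered 701 by the mean over cells, 28 after thinning, 528 with a minimum of 20 UMIs and 918 at 1.5-fold, and lower ones 750, 44, 806 and 945. Without members carrying at least 3 UMIs of other types' markers (21 WT and 6 KO left), the median of distal transcription factors was 0.29 and that of lysosomal genes 0.24. That limit is not scaled to depth, so deep cells reach it more easily. DNA replication was at 0.81 with at most 10% mitochondrial UMIs, -0.15 without high Scrublet scores, -0.043 with Slc12a3 of at least 5 per 10,000, -0.19 without mitosis-rich cells and -0.23 without cells with more UMIs of another type's markers than of distal ones. Mitosis reversed without high Scrublet scores (-1.85) and with Slc12a3 of at least 5 per 10,000 (-0.24), and was at 1.604 with Slc12a3 of at least 5 UMIs, 4.90 without other types' markers, 3.92 without the deepest members, 0.25 without mitosis-rich cells, 2.11 without cells with more of another type's markers, 2.01 by the mean over cells and 2.87 after thinning.

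Among named genes, Fxyd4 reversed to 0.133 without high Scrublet scores, 0.0999 without the deepest members, 0.784 with Slc12a3 of at least 5 per 10,000, 0.123 without mitosis-rich cells and 0.227 without cells with more of another type's markers. No ratio was computed where an alternative left at most 3 UMIs of a gene in both libraries, which touched Ptgds, Fxyd4, Slc5a12, G6pc, Adgrl3 and Frem1. TMM and median-of-ratios scaling shifted each ratio by -0.06 on the log2 scale. The cause of these changes was not tested beyond the cells each alternative leaves out. No paired analysis was possible because each genotype has 1 library. With 13 KO cells, single cells set several sums, and levels near 1 UMI per cell are not resolved.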

Other observations

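Lists of the clock, of stress and of the amino acid response complete the account of the member cells. Clock genes had a median of 0.17, which was 0.97 among cells with Slc12a3 of at least 5 per 10,000 and reached 1.37 over the alternatives, and apart from the repressors Bhlhe41 and Bhlhe40 (13.8 and 2.15) none of the 15 was at least 2-fold higher, with Per2 at 1.11 and Arntl at 1.08. Immediate-early and heat shock genes, which respond to tissue dissociation, had a median of 0.02, with Fos at 0.972, Egr1 at 1.02 and Jun at 0.877, but Atf3, a stress-induced factor, at 3.79, Dnajb1, a heat shock cochaperone, at 2.67 and Ier3 at 0.323. Amino acid response genes of ATF4 had a median of 0.21, with Ddit4 at 2.46, Ddit3 at 2.16 and Asns, asparagine synthetase, at 0.867.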
